A study of Mus musculus with 2 samples.

Results

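Genes that govern the passage from G1 into S phase were described in mouse 46C embryonic stem cells, an established line whose Sox1 locus carries a fluorescent reporter. They were the D cyclin genes Ccnd1, Ccnd2 and Ccnd3, the E cyclin genes Ccne1 and Ccne2, the kinase genes Cdk2 and Cdk4, and the inhibitor genes Cdkn1a, Cdkn1b and Cdkn2a. They were chosen by function, as rows of the count table whose Ensembl identifier carries one of these symbols, and all 10 were found among 46983 genes. The study compared 2 libraries of total RNA, 1 per group. One came from cells with a short hairpin against the long noncoding RNA linc1557 (knockdown), the other from cells given a control hairpin (control), and the labels name no other genetic change. The labels' protocol describes hairpins delivered by virus and stable clones picked after puromycin selection. How many clones entered a library is not stated. Culture was on feeder cells with serum and leukaemia inhibitory factor (LIF), and the protocol also describes growth without LIF, so the label of undifferentiated stem cells was taken as given.

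In the textbook scheme, D cyclins bind CDK4 or CDK6 and E cyclins bind CDK2. These kinases phosphorylate the retinoblastoma protein RB and its relatives, which frees E2F factors to switch on genes of DNA replication. CIP/KIP inhibitors (p21 from Cdkn1a, p27 from Cdkn1b, p57 from Cdkn1c) act on CDK2 complexes, and INK4 inhibitors bind CDK4 and CDK6. Mouse embryonic stem cells are known for a short G1 phase, high cyclin E and low D cyclin activity, and D cyclins become more abundant as the cells differentiate.

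Totals were 23146210 counts for the control and 26693282 for the knockdown library. Levels are given as CPM, the count scaled to library size, after TMM scaling, which corrects library size for differences in composition, and the brackets after a CPM or a fold hold 95% counting intervals. With 1 library per group differences could not be checked against replicates, no test or p-value is given, and the intervals do not cover the spread between clones or cultures. The libraries are bulk RNA, in which fewer cells of a type and less RNA per cell cannot be told apart. A gene was called when the libraries differed by at least 2-fold and the interval of the ratio excluded 1. The stem cell label was met by its markers, which do not show whether differentiated cells were present too. Markers of such cells are given below. All 12 stem cell markers were detected in both libraries, none was called, and their median log2 ratio (knockdown over control throughout) was 0.19. It was positive for 8 and negative for 4 of them, from -0.94 for Lin28a and -0.56 for Sall4 to 0.51 for Esrrb and 0.85 for Tdgf1, and with total-count scaling 1 was called lower. No row could be matched to linc1557, so the knockdown itself was not analysed here.

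Of the 10 genes, 2 (Ccnd2 and Cdkn2a) were called lower in the knockdown library and none was called higher. Among all 15850 genes that entered (at least 1 CPM in either library), 9.48% were called lower, 4.68% higher and 14.2% either way. A count of 2 in 10 is close to that background and is no result about the group. All 10 genes entered. Their log2 ratios ran from -1.44 to 0.84 with a median of -0.12, beside a median of 0.02 and quartiles of -0.35 and 0.33 over all entered genes. The widest differences in both directions lay within the D cyclins. The E cyclins, both kinases and both CIP/KIP genes differed by at most 1.21-fold.

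**Figure D1:**
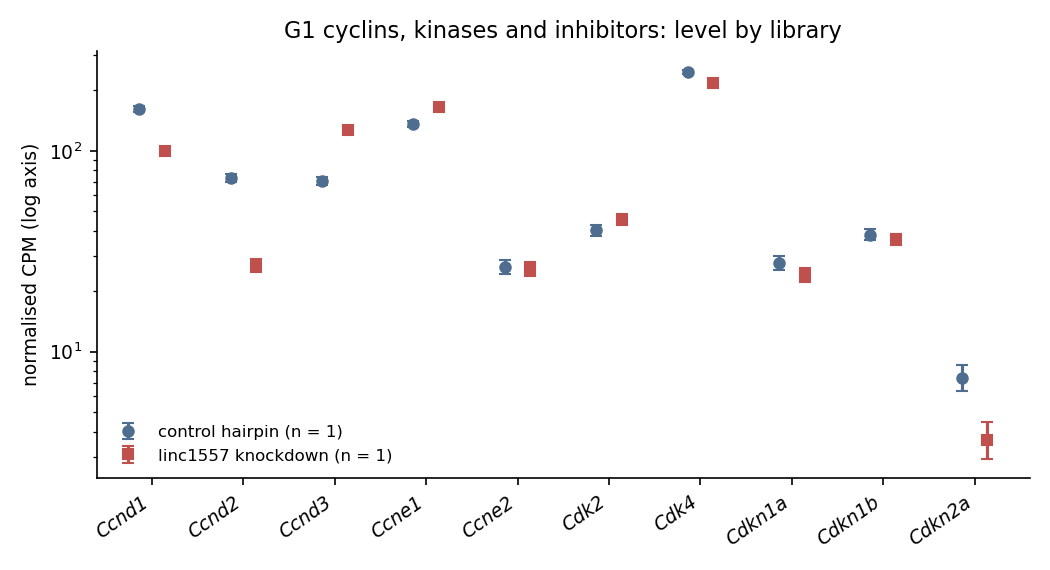
Level of each gene in TMM-normalised CPM on a log axis, control as circles and knockdown as squares, 1 library each, with bars for the 95% exact Poisson interval. Ccnd1, Ccnd2 and Cdkn2a are lower and Ccnd3 is higher in the knockdown library, while the points of Ccne2 and Cdkn1b lie within each other's bars.

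Ccnd1 and Ccnd2 were lower and Ccnd3 was higher in the knockdown library. Ccnd2 had 1759 counts in the control and 690 in the knockdown library, or 72.9 CPM (69.6 to 76.4) and 26.9 (25 to 29). That is 2.71-fold lower in the knockdown library (2.48 to 2.96), and 5.31% of entered genes had a lower ratio. Ccnd1, the D cyclin that growth factor and WNT signals classically induce, had 3894 control and 2573 knockdown counts, or 161 CPM (156 to 167) and 100 CPM (96.6 to 104). It was 1.61-fold lower (1.53 to 1.69) and so not called. Ccnd3 went the other way, with 1708 control and 3243 knockdown counts, or 70.8 CPM (67.5 to 74.3) and 127 CPM (122 to 131). Its ratio of 1.79 (1.68 to 1.90) fell short of 2-fold, and 6.62% of entered genes had a higher one. With a threshold of 1.5-fold Ccnd1 would be called lower and Ccnd3 higher, as are 16.4% and 11.5% of all entered genes. Markers of feeder fibroblasts, which also express D cyclins, had a median log2 ratio of -1.28 over 30 genes, and their part in these values was not tested.

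The count of one gene over another within a library does not depend on how the libraries are scaled, and it showed the same divergence. Ccnd3 had 0.971 counts for each count of Ccnd2 in the control library and 4.70 in the knockdown library, a 4.84-fold difference (4.35 to 5.39, exact conditional interval of the odds ratio). Against Ccnd1, the ratio of Ccnd3 was 0.439 in the control and 1.26 in the knockdown library, a 2.87-fold difference (2.66 to 3.11). Ccnd1 over Ccnd2 was 2.21 and 3.73, a 1.68-fold difference (1.52 to 1.87). All 3 intervals excluded 1, so the composition of the D cyclin transcripts differed between the libraries by more than counting error. The 3 ratios come from the same 3 genes and are not independent. Exceeding counting error is also common at this depth. The interval of the single-gene ratio excluded 1 for 63.9% of all entered genes and for 8 of the 10 genes.

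Per kilobase of the deposited gene length (RPKM), the level of Ccnd1 was 42.1 (40.8 to 43.4) in the control and 26.2 (25.2 to 27.2) in the knockdown library. Ccnd2 had an RPKM of 7.75 (7.39 to 8.12) in the control and 2.86 (2.65 to 3.08) in the knockdown library. Ccnd3 had an RPKM of 8.07 (7.69 to 8.46) in the control and 14.4 (13.9 to 14.9) in the knockdown library. Per length, Ccnd1 was thus the most abundant D cyclin transcript in both. By counts this held in the control only. In the knockdown library Ccnd3 then had 49.8% of the D cyclin counts and Ccnd1 39.5%. Its share of the summed D cyclin level per length was 72.7% (counting SE 0.464) in the control and 60.2% (SE 0.607) in the knockdown library. The share of Ccnd3 was 13.9% (SE 0.335) and 33.2% (SE 0.560), and that of Ccnd2 13.4% (SE 0.320) and 6.58% (SE 0.250). In the control library Ccnd2 and Ccnd3 could not be told apart in level, whereas in the knockdown library Ccnd3 stood above Ccnd2. The summed D cyclin level per length was 57.9 RPKM (SE 0.726) in the control and 43.5 (SE 0.585) in the knockdown library, a log2 ratio of -0.41 (-0.47 to -0.36).

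**Figure D2:**
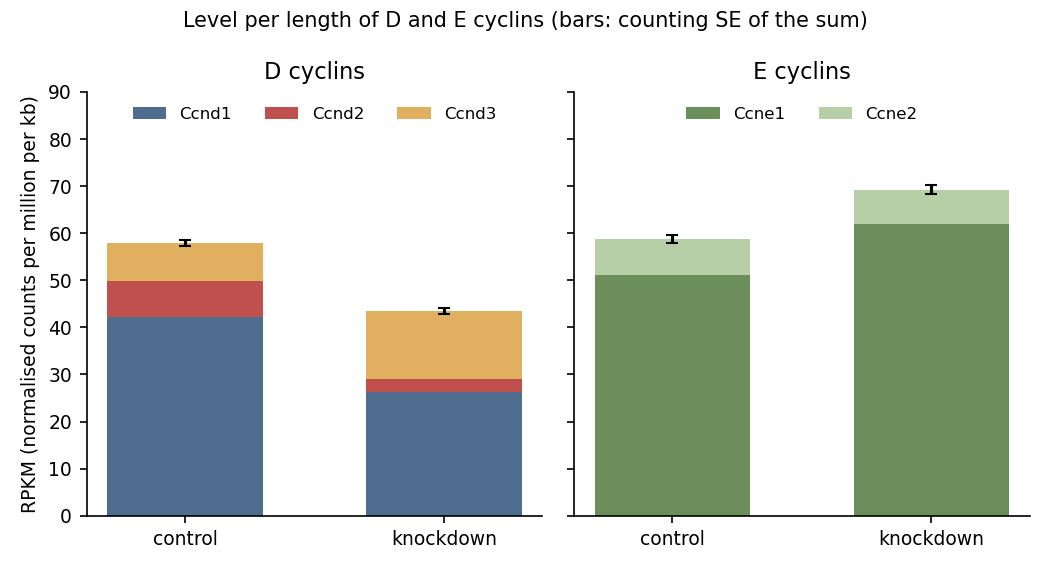
Stacked RPKM of the D cyclin genes (left) and E cyclin genes (right) in the control and knockdown library, 1 library each, with bars for the counting SE of the sum. The D cyclin sum is 57.9 in the control and 43.5 in the knockdown library with a larger Ccnd3 segment, and the E cyclin sum is 58.8 and 69.3.

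Ccnd3 has 2 transcription starts in RefSeq, far apart on chromosome 17, and the gene count adds the reads of both. The 250 bases before each start are shown because the difference in Ccnd3 cannot be assigned to either. Here and below the sequences are from RefSeq on GRCm38.p6, written 5′ to 3′ on the strand of the gene. Capitals mark matches to the motifs searched on both strands. These were the E2F site (TTTCCCGC, TTTCGCGC, TTTGCCGC or TTTGGCGC), the E-box (CACGTG), the STAT site (TTCNNNGAA), the GC box (GGGCGG), the CRE (TGACGTCA) and the TATA box (TATAAA).
Ccnd3 distal start, chr17:47504801-47505050, plus strand: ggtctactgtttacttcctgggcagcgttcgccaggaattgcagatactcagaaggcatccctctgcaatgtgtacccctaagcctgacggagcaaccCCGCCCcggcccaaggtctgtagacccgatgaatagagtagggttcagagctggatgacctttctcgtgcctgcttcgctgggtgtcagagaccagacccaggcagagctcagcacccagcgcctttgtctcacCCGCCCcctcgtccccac
Ccnd3 proximal start, chr17:47593217-47593466, plus strand: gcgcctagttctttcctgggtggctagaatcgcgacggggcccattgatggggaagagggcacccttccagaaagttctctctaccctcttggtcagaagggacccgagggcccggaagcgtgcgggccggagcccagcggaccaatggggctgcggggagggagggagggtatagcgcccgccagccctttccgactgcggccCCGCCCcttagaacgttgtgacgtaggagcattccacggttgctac
The distal window held 2 GC boxes and the proximal one 1, and neither held another of these motifs. GC content was 59.6% in the distal and 64.8% in the proximal window, with 11 and 19 CpG dinucleotides, beside medians of 52.4% and 6 over all 32851 windows of that length. Of the 10 genes, 7 had entries, with 10 windows in all. Ccnd1, Ccnd2 and Ccne2 had none. A GC box was found in 8 of the 10 windows and in 32.7% of all windows. The 10 windows had 54.0% to 78.4% GC, above the median of all windows, and some genes gave 2 windows. The windows were not matched for GC content, so no enrichment is read from this. The STAT letters were found in 0 of the 10 and in 7.02% of all windows, which says only that these letters are not in these windows.

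Where the D cyclin genes lie, other genes share some of their exons on the opposite strand. The counts cannot separate strands where the setting is not given. Ccnd1 (ENSMUSG00000070348, chromosome 7, 144929931 to 144939925) shares 1100 exonic bases with LTO1, 23.4% of its annotated exons. LTO1 had 128 control and 166 knockdown counts and a log2 ratio of 0.29, opposite in sign to Ccnd1. Ccnd3 (ENSMUSG00000034165, chromosome 17, 47505051 to 47599691) shares 361 bases with Bysl, whose log2 ratio was -0.20. The pseudogene Ccnd3-ps had 4 and 5 counts. The antisense genes that overlap Ccnd2 (ENSMUSG00000000184, chromosome 6, 127125162 to 127152193), Gm43126 and 9330179D12Rik, had at most 1 count. The nearest expressed coding genes on either side of Ccnd2 were not called. Tigar, 15.6 kb away, had a log2 ratio of 0.14 and Parp11, 294.6 kb away, one of -0.48.

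The E cyclin genes, whose proteins activate CDK2, differed less. Ccne1 (chromosome 7, 38097984 to 38107534) had 3287 control and 4225 knockdown counts, or 136 CPM (132 to 141) and 165 CPM (160 to 170). It was 1.21-fold higher (1.16 to 1.27) and not called. Ccne2 (chromosome 4, 11191351 to 11204779) had 638 control and 660 knockdown counts, or 26.5 CPM (24.4 to 28.6) and 25.8 CPM (23.8 to 27.8). Its log2 ratio of -0.04 (-0.20 to 0.12) did not differ from 0 beyond counting error. Its sign is not settled, since it was 0.002 with DESeq2 size factors. Ccne1 supplied 87.1% (SE 0.485) of the E cyclin level per length in the control and 89.4% (SE 0.398) in the knockdown library. Ccne1 over Ccne2 differed 1.24-fold (1.10 to 1.40) between the libraries. Ccne2 shares 609 exonic bases, 17.4% of its exons, with Ints8 on the other strand, and Ints8 had a log2 ratio of -0.05.

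The proportion of E to D cyclin transcripts therefore differed as well. The summed E cyclin level per length was 58.8 RPKM (SE 0.942) in the control and 69.3 (SE 0.995) in the knockdown library, a log2 ratio of 0.24 (0.18 to 0.30). It about equalled the D cyclin sum in the control and exceeded it in the knockdown library. With the exon lengths of the GENCODE M21 annotation the D cyclin sum is 50.1 in the control and 38.6 in the knockdown library, below the E cyclin sum in both. Without division by length the order turns. The D cyclins then sum to 305 CPM and the E cyclins to 163 CPM in the control, and to 254 and 191 CPM in the knockdown library. Counted as Ccne1 over Ccnd1, which is free of scaling, the ratio was 0.844 in the control and 1.64 in the knockdown library, a 1.95-fold difference (1.82 to 2.08). These are transcript ratios and carry no measure of cyclin protein.

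**Figure D3:**
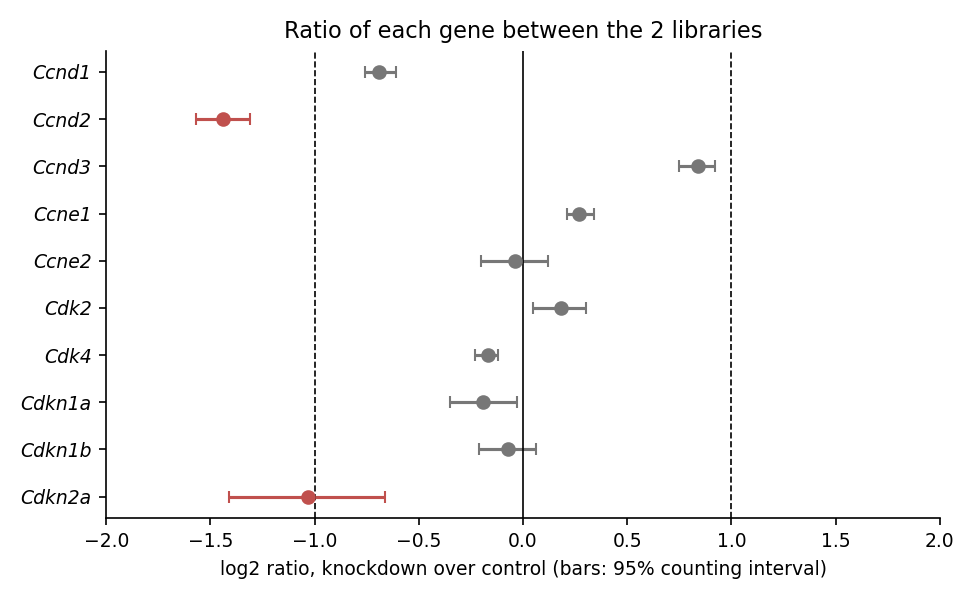
Log2 ratio of knockdown over control for each gene with its 95% counting interval, dashed lines at 2-fold, called genes in red. Ccnd2 lies wholly beyond the lower line, the interval of Cdkn2a crosses it, and Ccnd3 at 0.84 and Ccnd1 at -0.69 lie between the lines on opposite sides.

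Cdk4, the partner of the D cyclins, had the highest level per length of the 10 genes in both libraries. It had 5935 control and 5591 knockdown counts, or 246 CPM (240 to 252) and 218 CPM (213 to 224), and a log2 ratio of -0.17 (-0.23 to -0.12). Cdk2, the partner of the E cyclins, had 971 control and 1167 knockdown counts, or 40.3 CPM (37.8 to 42.9) and 45.5 CPM (43 to 48.2), and a log2 ratio of 0.18 (0.05 to 0.30). Neither kinase was called, and their small differences had opposite signs. Cdk2 over Cdk4 differed 1.28-fold (1.16 to 1.40). Cdk4 (chromosome 10, 127063534 to 127067920) shares 641 exonic bases, 19.7% of its exons, with Tspan31 on the other strand, whose log2 ratio was -0.16. Cdk2 (chromosome 10, 128697939 to 128705031) shares 34 bases with Pmel. The other D cyclin kinase, Cdk6, had 1541 control and 1419 knockdown counts and a log2 ratio of -0.21 (-0.31 to -0.10).

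The window before the Cdk4 start is shown for its E-boxes, the letters that MYC proteins with MAX are known to bind, and was chosen after these were seen.
Cdk4, chr10:127063285-127063534, plus strand: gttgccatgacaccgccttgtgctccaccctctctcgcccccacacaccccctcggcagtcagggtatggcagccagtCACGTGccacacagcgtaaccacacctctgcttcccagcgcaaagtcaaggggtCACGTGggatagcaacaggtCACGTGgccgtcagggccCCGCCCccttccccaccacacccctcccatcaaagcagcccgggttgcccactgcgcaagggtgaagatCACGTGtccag
It holds 4 E-boxes and 1 GC box. An E-box was found in 1 of the 10 windows of these genes and in 6.02% of all windows. Among 11 genes of the MYC family and its partners, 2 were called lower and 0 higher, beside 9.48% and 4.68% of all entered genes. The median log2 ratio was 0.08, and 7 of the 11 were positive. With DESeq2 size factors, protein-coding scaling, thinning or centring by expression 1 was called higher. Mycn had 3366 control and 1361 knockdown counts, a 2.63-fold lower level (2.47 to 2.80). Mycl, with 414 and 110 counts, was 4-fold lower (3.23 to 4.98). Myc itself, with 594 and 641, had a log2 ratio of 0.02 (-0.14 to 0.19). Genes of MAX partners that oppose MYC went both ways. Named after their values were seen, they had log2 ratios of 0.99 (Mxd1), 0.93 (Mxd3), 0.64 (Mxi1), 0.19 (Mga), -0.34 (Mnt) and -0.63 (Mxd4), none called. Cdk4 was 1.13-fold lower (1.09 to 1.17) and not called.

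Among the inhibitors, Cdkn1a and Cdkn1b differed little. Cdkn1a (chromosome 17, 29090976 to 29100727), a p53 target, had 665 control and 619 knockdown counts, or 27.6 CPM (25.5 to 29.8) and 24.2 CPM (22.3 to 26.1), and a log2 ratio of -0.19 (-0.35 to -0.03). Cdkn1b (chromosome 6, 134920401 to 134925513) had 923 control and 931 knockdown counts, or 38.3 CPM (35.8 to 40.8) and 36.3 CPM (34 to 38.7), and a log2 ratio of -0.07 (-0.21 to 0.06). Cdkn1b over Cdkn1a differed 1.08-fold with an interval of 0.937 to 1.25 that includes 1. Of 21 genes of p53 and its targets, 1 was called higher (Gdf15, a stress cytokine, log2 ratio 1.48) and 0 lower. Over all entered genes 4.68% were called higher and 9.48% lower, so this count is no result about the list. The list's median was -0.17, with 5 genes positive and 16 negative, beside a median of 0.02 over all entered genes. With a filter of 5 CPM Gdf15 did not enter and no gene of that list was called higher, and with total counts, thinning or centring by gene length 1 was called lower. Trp53 itself had a log2 ratio of -0.41.

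Cdkn2a (ENSMUSG00000044303, chromosome 4, 89274471 to 89294653) encodes 2 unrelated proteins from 2 starts, the CDK4 inhibitor p16 and the p53 activator ARF. It rests on few counts, 179 in the control and 93 in the knockdown library, or 7.42 CPM (6.38 to 8.59) and 3.63 CPM (2.93 to 4.45). It was 2.04-fold lower (1.58 to 2.66), and 9.14% of entered genes had a lower ratio. This call lies at the threshold. It ended with DESeq2 size factors (log2 ratio -0.99) and with thinning of the deeper library or centring by expression level (-0.97 each). The neighbour Cdkn2b, an INK4 inhibitor gene 11.6 kb away, had nearly the same values, with 190 control and 100 knockdown counts, 2.02-fold lower (1.58 to 2.60). That call, too, ended in some settings, among them DESeq2 size factors. On the other side Mtap, 93.4 kb away, had a log2 ratio of -0.27 and was not called. Cultured fibroblasts are known to express this locus too, and the 10 defining feeder markers had a median log2 ratio of -1.03. Their part in the Cdkn2a value was not tested.

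The windows before both Cdkn2a starts are shown because the gene count does not tell them apart. The distal start is that of ARF and the proximal start that of p16.
Cdkn2a distal start, chr4:89294620-89294869, minus strand: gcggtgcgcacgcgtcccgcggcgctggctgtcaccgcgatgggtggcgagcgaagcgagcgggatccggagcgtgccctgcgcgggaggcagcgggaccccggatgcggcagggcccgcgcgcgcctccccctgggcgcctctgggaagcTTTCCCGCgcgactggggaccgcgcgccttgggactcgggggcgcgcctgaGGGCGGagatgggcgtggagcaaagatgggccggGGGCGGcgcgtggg
Cdkn2a proximal start, chr4:89282193-89282442, minus strand: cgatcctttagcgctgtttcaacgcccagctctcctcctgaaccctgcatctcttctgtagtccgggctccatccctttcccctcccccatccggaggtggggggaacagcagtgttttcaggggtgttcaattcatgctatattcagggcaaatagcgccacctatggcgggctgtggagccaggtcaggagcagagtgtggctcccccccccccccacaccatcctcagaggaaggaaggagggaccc
The windows differ in composition. The distal one has 78.4% GC, 40 CpG dinucleotides, 1 E2F site and 2 GC boxes, the proximal one 60% GC, 7 CpG and no match to any of the motifs. An E2F site of these letters was found in 1.86% of all windows and in 2 of the 10 windows of these genes, the second being that of Cdk2. Here, too, the windows were not matched for GC content.

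The inhibitor genes outside the 10 went both ways. Cdkn1c, an imprinted CIP/KIP gene, had 729 control and 118 knockdown counts, a 6.56-fold lower level (5.40 to 8.04). Cdkn2c and Cdkn2d, the remaining INK4 genes, are named here for completeness of the family and after their values were seen. Cdkn2d had 91 control and 181 knockdown counts and a ratio of 1.87 (1.45 to 2.44), and Cdkn2c 20 and 34 with an interval of 0.895 to 2.93 that includes 1. Of the 11 other genes of G1 kinases and inhibitors, 2 were called lower (Cdkn1c and Cdkn2b) and 0 higher, beside 9.48% lower and 4.68% higher over all entered genes, and the median log2 ratio was 0.08. The lower count was 1 with DESeq2 size factors, protein-coding scaling, a prior count of 2 or centring by expression, and with that centring 1 gene was called higher.

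**Figure D4:**
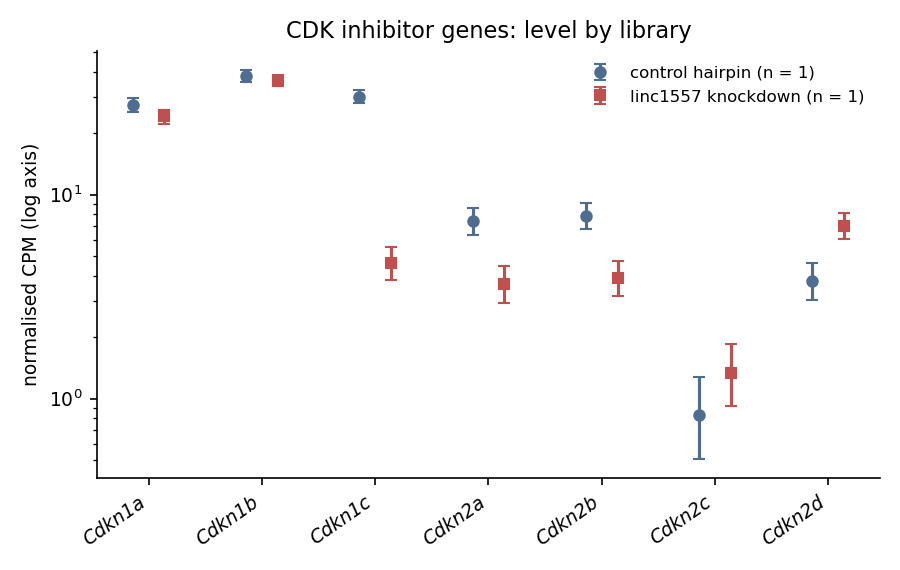
Level of the CDK inhibitor genes in TMM-normalised CPM on a log axis, control as circles and knockdown as squares, 1 library each, bars for the 95% exact Poisson interval. Cdkn1c, Cdkn2a and Cdkn2b lie lower and Cdkn2d higher in the knockdown library, and the bars of Cdkn2c overlap.

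In order of level per length, both libraries put Cdk4, Ccne1, Ccnd1 and Cdk2 first, with RPKM of 75.8, 51.2, 42.1 and 16.6 in the control and 67.2, 61.9, 26.2 and 18.7 in the knockdown library. Then came Cdkn1a (12.4), Cdkn1b (8.41), Ccnd3 (8.07), Ccnd2 (7.75), Ccne2 (7.57) and Cdkn2a (6.33) in the control library. From Cdkn1b downward, neighbours in that order had overlapping counting intervals. In the knockdown library the order was Ccnd3 (14.4), Cdkn1a (10.9), Cdkn1b (7.98), Ccne2 (7.37), Cdkn2a (3.10) and Ccnd2 (2.86), with overlap between Cdkn1b and Ccne2 and between Cdkn2a and Ccnd2. Ccnd3 was thus the seventh in the control and the fifth in the knockdown library, and Ccnd2 the eighth and the last. The gene length sets part of this order. For Cdk2 the GENCODE M21 annotation has 6219 exonic bases against 2432 in the deposited table. With that length its RPKM is 6.47 in the control and 7.32 in the knockdown library, places 9 and 7. For Cdkn1a the lengths are 3553 and 2223, and for Ccnd1 4709 and 3835, while the other 7 genes had the same length in both. With the M21 lengths Ccnd3 takes place 5 in the control and 4 in the knockdown library, and Ccnd2 places 7 and 10.

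Downstream of these kinases, the RB family and E2F genes had 1 called member of 15, beside 14.2% called over all entered genes. This was E2f2, an activating E2F. It had 222 control and 667 knockdown counts, a 2.83-fold higher level (2.43 to 3.31). The list's median log2 ratio was 0.01. Replication genes that E2F controls, such as the MCM helicase subunits, had no called member among 25, beside 14.2% called over all entered genes. Their log2 ratios were positive for 23 of 25, with a median of 0.32 beside 0.02 over all entered genes. About 52% of all entered genes had a ratio above 0.999. Mcm5 had a log2 ratio of 0.19 and Dnmt1 one of 0.55. When scaled by total counts, 21 of the 25 were positive, with a median of 0.20 beside -0.10 over all genes. S and M phase cyclins and kinases had no call among 19 and a median of -0.03, with the proliferation marker Mki67 at 0.16 and Top2a at 0.06. Genes for the turnover of G1 regulators had none among 16 and a median of -0.07, with Cul4b at 0.05 and Ddb1 at -0.07.

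Of 21 entered regulators of the Cdkn2a locus, 1 was called higher and 3 lower, beside 4.68% and 9.48% of all entered genes. These counts are no result about the list. The median log2 ratio was -0.18. With a filter of 5 CPM 19 entered, 1 was called lower and the median was -0.00. Tbx3, a T-box repressor of that locus, had 992 control and 2320 knockdown counts and was 2.20-fold higher (2.04 to 2.37). The chromatin protein gene Hmga2 had 1408 control and 540 knockdown counts, a 2.77-fold lower level (2.51 to 3.06). The Polycomb gene Cbx8 was lower, with 29 control and 7 knockdown counts, and with a filter of 5 CPM it did not enter.

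**Figure D5:**
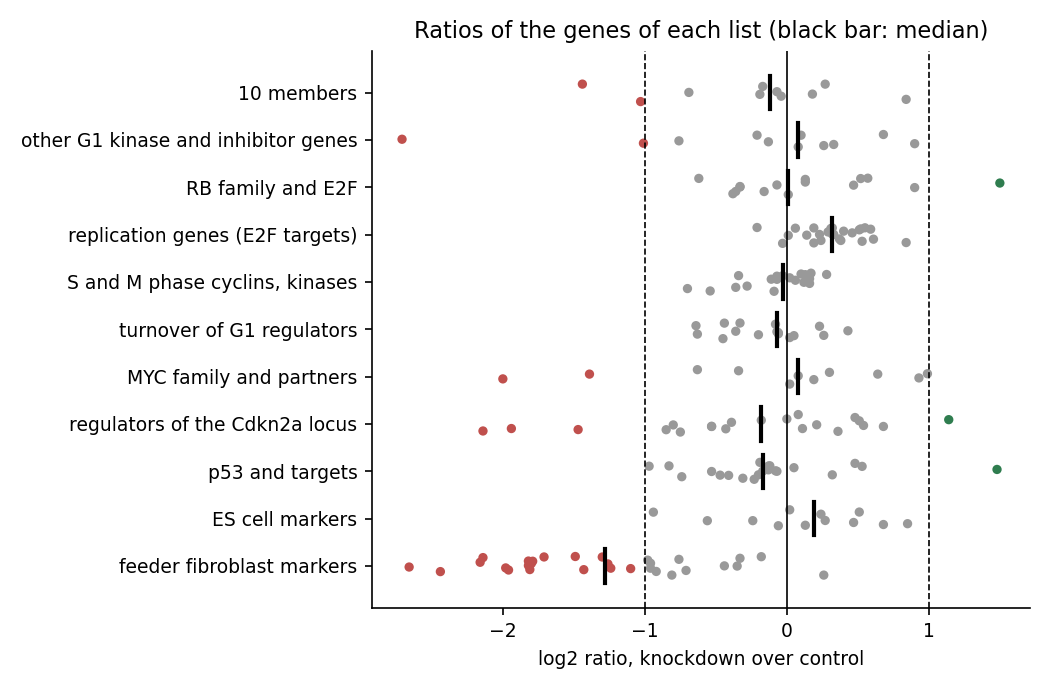
Log2 ratio of each entered gene by list, with green for higher, red for lower and grey for not called, a black bar at the list's median and dashed lines at 2-fold. The replication genes sit between the dashed lines with a median of 0.32, and the feeder fibroblast markers have a median of -1.28.

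Markers of other cell types were measured because the cells grew on feeders. Feeder fibroblast markers had lower values with the linc1557 hairpin, as had Ccnd1, Ccnd2, Cdkn2a, Cdkn2b and Cdkn1c. Ccnd3 (log2 ratio 0.84) and Cdkn2d (0.90) were higher, and Cdkn1b (-0.07) and Cdk6 (-0.21) differed little. Of 30 feeder markers 18 were called lower and none higher, beside 9.48% and 4.68% of all entered genes. Their summed level was 3557 CPM in the control and 2032 CPM in the knockdown library. Among the list's genes, Col6a3 had a log2 ratio of -2.44 and Timp3 one of -2.66. The 10 defining ones summed to 566 and 213 CPM, 5 were lower, none was higher, and none was at 0 in either library. Their median log2 ratio was -1.03, with Col1a2 at -1.80 and Col3a1 at -2.16, and Dcn had the highest at 0.26. Their part in the values of the G1 genes was not tested.

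Markers of differentiated cells also differed. The counts of calls below stand beside 9.48% lower and 4.68% higher over all entered genes. Endoderm markers summed to 84.9 CPM in the control and 16.7 CPM in the knockdown library (6 lower and 1 higher of 8 entered, Cer1 at -8.30 and Foxa2 at -6.64). Streak and mesoderm markers summed to 120 and 9.72 CPM (7 lower and 2 higher of 9, Lhx1 at -8.23 and Fgf8 at -6.17). Trophectoderm markers summed to 122 and 52.1 CPM (4 lower, none higher of 6, Cdx2 at -4.04 and Krt7 at -3.79). Neuroectoderm markers summed to 147 and 95.5 CPM (1 lower, Nes at -1.09, and 1 higher, Sox1 at 2.94, of 5). Macrophage markers summed to 49.2 and 37.2 CPM (5 lower, 1 higher of 9, C1qb at -2.30), and Marco had 0 control and 135 knockdown counts. Several of these calls rest on genes of low level. With a filter of 5 CPM 3 macrophage markers entered, with 1 lower, 1 higher and a median that turned from -1.07 to 0.22. The higher streak and mesoderm count of 2 was 0 with that filter or with total counts, and 1 with a prior count of 2 or centring by gene length. With the same filter the lower trophectoderm count was 2 and the higher neuroectoderm count 0, and without a filter the lower neuroectoderm count was 2. The genes at 0 were Afp, Evx1 and Elf5 in the knockdown library, Marco and Neurog2 in the control library and Ttr in both. The part of such cells in the D cyclin and inhibitor values was not tested.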

How the data were processed

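The authors deposited raw read counts per gene for 2 libraries, with a gene length column. The submitters' processing notes name Trim Galore, HISAT2, featureCounts and DESeq, and the builds mm10 and GRCm38. The annotation release, tool versions, strand setting and counting of overlapping genes are not stated in the sources used here. Symbols and coordinates came from GENCODE M21 (GRCm38), which matched 46488 of 46983 identifiers.

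TMM factors (0.960 knockdown, 1.04 control) came from edgeR 4.0.16 in R 4.3.3, and ratios without pseudocount from Python 3.11.15 (numpy 2.4.6; scipy 1.17.1). Figures used matplotlib 3.10.9. Ratios of single genes have exact 95% Clopper-Pearson and levels exact Poisson intervals. Intervals of the summed cyclin ratios are 95% normal approximations on the log scale from the counting SE. All of these cover counting error only. For a 0, a floor of 3 counts was used. RPKM is normalised CPM per kilobase of deposited length. The call was made on the whole table and tried on simulated counts. Those held counting error only and planted folds beyond the threshold. They therefore do not check the call near 2-fold or against the spread between clones. With 1 library per group no edgeR or DESeq2 test could be fitted.

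The 10 genes and all lists were chosen with earlier results of these data known. Named are the 10, up to 4 called genes of each pathway list and 2 of each marker list by size of change (the 2 most abundant where none was called), exon-sharing genes and neighbours of called ones. Others are named for their role or with a remark, and 1 gene that the rule names is not reported here. Alternatives were total-count, DESeq2 1.42.0, upper-quartile and protein-coding scaling, no filter or 5 CPM, a prior count of 2, thinning, centring in 20 bins, 1.5-fold and 4-fold thresholds, and another gene length.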

Additional observations from a re-analysis of the deposited data

How the results depend on the processing

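Of 120 combinations of a member's ratio with 1 of 12 alternative settings, 112 kept their direction and their side of the threshold. Some of these had to agree. The other filters left every member's ratio as it was, and the other fold thresholds change the call only. With DESeq2 size factors Ccne2 had a log2 ratio of 0.002 and Cdkn2a one of -0.99, and with thinning or centring by expression Cdkn2a had -0.97, so that 1 member was called lower in each of these 3 settings. At 1.5-fold Ccnd1 (-0.69) was also called lower and Ccnd3 (0.84) higher, the 1 member then called higher. At 4-fold Ccnd2 (-1.44) and Cdkn2a (-1.03) were no longer called, which left 0 members. Across settings Ccnd2 ranged from -1.56 to -1.38, Ccnd1 from -0.80 to -0.65 and Ccnd3 from 0.72 to 0.89. Scaling by total counts shifted the median of all genes by -0.12 on the log2 scale. The summed D cyclins had a log2 ratio of -0.27 by counts in place of level per length, and -0.38 with M21 lengths. The share of each D cyclin moved with that scale, and by counts Ccnd3 led in the knockdown library. Of 384 combinations of a list's call count with a setting, 335 stayed within 1.5 times, and 26 of the 49 others were at another fold threshold. With 179 control and 93 knockdown counts, the interval of Cdkn2a spans the threshold, and depth limits that call. No paired analysis was possible because each group has 1 library.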
